A study of Mus musculus with 4 samples.

Results

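Hemoglobin transcripts were followed through 4 single-cell libraries of a mouse prostate tumor graft and of subcutaneous adipose tissue (SAT), from which red blood cells had been removed. The genes are Hbb-bs, Hbb-bt, Hba-a1 and Hba-a2, 4 of the 31053 genes in the count tables. They were chosen by name with their counts in these libraries already known, because hemoglobin RNA is typical of red cells. Their levels are therefore a description, and none is tested. A hemoglobin UMI was found in 495 of 9128 deposited cells.

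The mice were of the FVB strain, which the labels write as VFB, were fed chow and carried subcutaneous grafts of MycCaP cells, a prostate cancer line derived from HiMyc mice. D-CAN, given to 1 group, joins a peptide that homes to adipose stromal cells (ASC) to an amphipathic sequence made of D-amino acids and is used to deplete ASC. The control group received PBS. Each group gave 1 tumor library, with cancer and stromal/vascular cells, and 1 library of the stromal/vascular fraction (SVF) of SAT. Whether a library holds cells of 1 mouse or of several is not given, the age of the mice is not given in the labels, and the graft is 1 cell line. All 4 suspensions had passed dead cell removal and red blood cell removal before capture.

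Hemoglobin is a tetramer of alpha and beta chains that carries oxygen. Its genes are transcribed in erythroid precursors in the marrow and spleen, and circulating red cells, which have lost their nucleus, keep hemoglobin mRNA for some time. In a droplet assay this RNA can be counted from an intact red cell, from a red cell that shares a droplet with another cell, or from RNA free in the suspension. This list is not complete, and whether a captured cell of another type made the RNA itself was not tested.

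The beta chain genes Hbb-bs and Hbb-bt lie on chromosome 7, and the alpha chain genes Hba-a1 and Hba-a2 on chromosome 11. In GRCm38 with the GENCODE vM21 annotation, Hbb-bs (ENSMUSG00000052305) spans chr7:103826534-103828096 and Hbb-bt (ENSMUSG00000073940) spans chr7:103812524-103813996, both on the minus strand. Hba-a1 (ENSMUSG00000069919) spans chr11:32283511-32284465 and Hba-a2 (ENSMUSG00000069917) spans chr11:32296489-32297298, both on the plus strand. The windows below are shown because the members of a pair are nearly identical, which limits how well their counts can be told apart. Each lies in the coding part of exon 3 of 3, and the capital marks the 1 coding base at which the pair differs.
Hba-a1: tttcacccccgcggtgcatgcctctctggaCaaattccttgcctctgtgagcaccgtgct
Hba-a2: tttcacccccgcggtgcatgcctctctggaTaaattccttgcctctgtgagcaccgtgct
Hbb-bs: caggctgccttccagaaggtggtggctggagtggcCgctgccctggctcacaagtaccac
Hbb-bt: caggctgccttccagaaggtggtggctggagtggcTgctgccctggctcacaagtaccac
The Hba-a1 window is chr11:32284313-32284372 and the Hba-a2 window is chr11:32297130-32297189. The Hbb-bs window is chr7:103826668-103826727 and the Hbb-bt window is chr7:103812659-103812718, read on the minus strand. Counted from 1 at the first base of the start codon, the alpha genes differ by C381T over 426 coding bases and the beta genes by C417T over 441, and both changes leave the amino acid the same. After the stop codon the alpha genes were identical over all 74 aligned bases, while the beta genes differed at 33 of 128. The assay reads the 3′ end of transcripts, so reads of Hba-a1 and Hba-a2 can be assigned to the wrong gene or lost as ambiguous, and the split between these 2 genes is uncertain. The sum of the pair, called alpha below, and that of the Hbb pair, called beta, do not depend on that assignment except for reads that were lost.

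The control and D-CAN tumor libraries held 2830 and 1525 cells and 17996284 and 15672787 UMIs (unique molecular identifiers, 1 for each captured RNA molecule). The control and D-CAN SAT libraries held 2851 and 1922 cells and 6667064 and 7444729 UMIs. Cells with 200 genes or more, called kept cells, numbered 2761, 1487, 2841 and 1897 in the same order, and their median depths were 3578, 5232, 1707 and 2950 UMIs. Libraries shared 7 cell barcodes over all pairs, and no shared barcode had a hemoglobin UMI in both libraries. With 1 library in each group, all intervals below are exact 95% intervals for counting error only, and a difference between libraries has no replicate check.

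Most hemoglobin RNA sat in very few droplets. Over all deposited cells the tumor libraries held 1143 (control) and 1509 (D-CAN) hemoglobin UMIs and the SAT libraries 4320 and 17057. Droplets with at least 1% of their UMIs from the 4 genes held 86.9%, 92.5%, 92.8% and 98.4% of these UMIs, in the same order. There were 3 such droplets in the tumor control library, 1 in tumor D-CAN, 36 in SAT control and 6 in SAT D-CAN. At a threshold of 10% the numbers were 1, 1, 8 and 3, and at 50% they were 1, 1, 1 and 3.

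The droplets with at least 50% hemoglobin held few genes besides. The tumor control droplet held 679 hemoglobin UMIs of 789 (86.1%) and only 102 genes. The tumor D-CAN droplet held 1396 of 1508 (92.6%) and 79 genes. The 3 SAT D-CAN droplets held 6589 of 6795, 6329 of 6515 and 1368 of 1466 UMIs, with 89, 79 and 67 genes. At most 0.265% of the UMIs in these 5 droplets were mitochondrial, and all 5 have too few genes to pass a filter at 200. The SAT control library had no such droplet under 200 genes. Its droplet above 50% held 536 hemoglobin UMIs of 944 (56.8%), with 219 genes and 11.2% mitochondrial UMIs, and its 7 droplets between 10% and 50% had 204 to 347 genes. Clustering placed these 8 SAT control droplets with fibroblasts (5) or B cells (3). Ptprc, the leukocyte marker CD45, and Dcn, the fibroblast proteoglycan decorin, had 1 UMI each over the 8, so their class was not borne out by these markers.

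The other RNA in the 6 droplets above 50% was examined for red cell genes, and the genes named in this paragraph other than those of the erythroid list were chosen after their values were seen. Alas2, which encodes the erythroid form of the first enzyme of heme synthesis, had 17 UMIs there, 53.1% of its 32 in the whole series. Mkrn1 (37 UMIs), Bpgm, the enzyme that makes 2,3-bisphosphoglycerate in red cells (14), Bnip3l, needed for clearance of mitochondria from reticulocytes (12), the heme synthesis enzyme Fech (9) and the membrane skeleton gene Epb41 (8) were also found in these droplets. Over the 46 droplets with at least 1% hemoglobin, Alas2 had 30 of its 32 UMIs. By library these were 1 of 2, 3 of 3, 6 of 6 and 20 of 21 UMIs in tumor control, tumor D-CAN, SAT control and SAT D-CAN. The SAT control droplet above 50% had none.

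Most other erythroid genes had few UMIs or none. Of 14 erythroid genes that are no globin, 13 were matched by symbol and 5 had any UMI in the series. Slc4a1 (band 3), Rhag, Epb42, Kel, Tspo2, Trim58 and Car1 were at 0 in all 4 libraries. Klf1, the erythroid transcription factor, had 8 UMIs, Hemgn 12 and Ermap 19, and none of these was in a droplet with at least 1% hemoglobin.

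**Figure D1:**
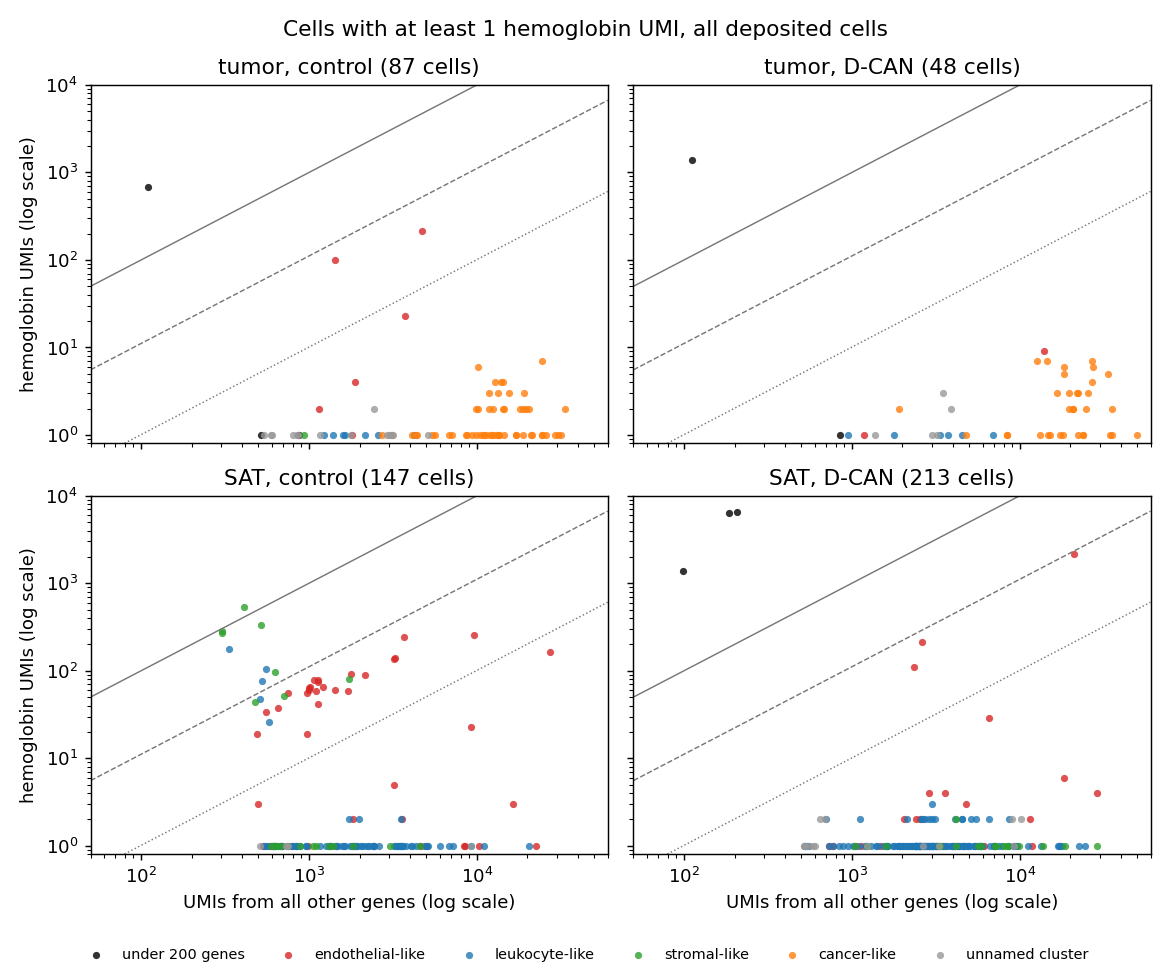
Hemoglobin UMIs (vertical axis, log scale) against UMIs from all other genes (horizontal axis, log scale) for the cells with at least 1 hemoglobin UMI, 1 panel per library, colored by class. The dotted, dashed and solid lines mark 1%, 10% and 50% of UMIs from hemoglobin. The black points at the upper left are the droplets under 200 genes with 679, 1396 and, in SAT D-CAN, 1368 to 6589 hemoglobin UMIs, and most other cells lie at 1 UMI.

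Among kept cells the UMIs were far from even. The tumor control library had 462 hemoglobin UMIs in kept cells, or 25.8 CPM (the UMIs of a gene in every 1000000 UMIs of the cells counted), and they were found in 84 cells (3.04%, interval 2.43 to 3.75). An even Poisson spread of the same number would have reached 15.4% of cells. The tumor D-CAN library had 112 UMIs (7.17 CPM) in 46 cells (3.09%, interval 2.27 to 4.11), against 7.26% for an even spread. The SAT control library had 4320 UMIs (648.6 CPM) in 147 cells (5.17%, interval 4.39 to 6.05), against 78.1%. The SAT D-CAN library had 2771 UMIs (373.7 CPM) in 210 cells (11.1%, interval 9.69 to 12.6), against 76.8%. The variance of UMIs per cell was 123, 4.14, 203.5 and 1722 times the mean in these libraries, where a Poisson spread would make them equal. The richest kept cell held 46.5%, 8.04%, 12.4% and 78.4% of the hemoglobin UMIs. Nearly all genes with a like total (within 20%) were found in more cells, namely 1272 of 1276 in tumor control, 1068 of 1109 in tumor D-CAN, 42 of 42 in SAT control and 102 of 104 in SAT D-CAN.

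Once the cells with at least 1% hemoglobin were left out, few hemoglobin UMIs remained. There were 148 and 112 UMIs in the tumor libraries (8.26 and 7.17 CPM) and 310 and 278 in the SAT libraries (46.9 and 37.6 CPM). In tumor D-CAN no kept cell reached 1%, so none was left out. In SAT control 165 of the 310 came from 1 endothelial-like cell. The remaining UMIs reached 2.97%, 3.09%, 3.96% and 10.9% of cells in tumor control, tumor D-CAN, SAT control and SAT D-CAN. An even spread would have reached 5.22%, 7.26%, 10.46% and 13.65%, so by this measure SAT D-CAN came closest to even. Genes of a like total found in more cells numbered 1148 of 1198, 1068 of 1109, 1100 of 1112 and 743 of 1275. Of the kept cells with hemoglobin, 58 of 84, 24 of 46, 101 of 147 and 175 of 210 had exactly 1 UMI. Cells with at least 1000 UMIs were also thinned to 1000. The 353 and 138 tumor cells and 913 and 196 SAT cells shallower than that (control and D-CAN) were left out. After thinning, the share of cells with a UMI was 0.872% and 0.964% in the tumor libraries and 2.85% and 4.64% in SAT. The share in SAT D-CAN was the higher of the SAT pair while its CPM was the lower, so no order between the 2 libraries is read from the shares over all cells.

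Endothelial-like cells were those of clusters with 8 or 9 detected endothelial markers, from a list with Cdh5 (VE-cadherin), Pecam1 (CD31) and Egfl7. These genes were among the leading ones of the tumor cluster, whereas the SAT clusters were led by genes such as Car4, Btnl9, Selp and Glycam1. Endothelial-like cells had more hemoglobin UMIs per cell than all other kept cells together in the 4 libraries as clustered here. In SAT control this turned to 0.357 times the level of the others with 20 principal components in place of 10, where 20 of the 23 endothelial-like cells with at least 1% hemoglobin joined a perivascular cluster. In the tumor control library 101 endothelial-like cells had 3.41 hemoglobin UMIs per cell (interval 3.06 to 3.79), against 0.0444 in all other kept cells. In the tumor D-CAN library 67 such cells had 0.149 (interval 0.0716 to 0.275), against 0.0718. In SAT control 559 had 3.77 (interval 3.61 to 3.93), against 0.970, and in SAT D-CAN 170 had 15.1 (interval 14.5 to 15.7), against 0.121. In SAT control the stromal-like class had 3.68 per cell (interval 3.50 to 3.86), which overlapped the endothelial-like level, since 5 of the droplets with at least 10% hemoglobin fell in it. Endothelial-like cells held 74.5%, 8.93%, 48.8% and 92.5% of the hemoglobin UMIs of kept cells, while making up 3.66%, 4.51%, 19.7% and 8.96% of those cells. These values rest on few cells. Endothelial-like cells with 10 or more hemoglobin UMIs numbered 3, 0, 25 and 4, against 0, 0, 13 and 0 among all others. Without the richest cell of each library the endothelial-like level over that of other cells went from 76.8 to 29.1 times in tumor control and from 124.5 to 19.1 times in SAT D-CAN, and in tumor D-CAN it turned from 2.08 to 0.211 times. The excess in tumor D-CAN was thus that of 1 cell with 9 UMIs.

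The cells with the most hemoglobin in this class carried endothelial transcripts. The richest, in SAT D-CAN, had 2172 hemoglobin UMIs among 23119, with 4880 genes, 14 UMIs of Pecam1, 35 of Cdh5 and 6 of Alas2. The richest in tumor control had 215 among 4897, with 7 UMIs of Cdh5, 1 of Pecam1 and none of Alas2. Without the cells with at least 1% hemoglobin the endothelial-like cells still had 0.303, 0.149, 0.416 and 0.413 UMIs per cell, which was 6.83, 2.08, 10.9 and 3.41 times the level of the other cells. Here too a single cell weighed heavily, with 23 of 30 UMIs in tumor control, 9 of 10 in tumor D-CAN, 165 of 223 in SAT control and 29 of 69 in SAT D-CAN. Whether these are red cells captured with an endothelial cell was not tested.

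**Figure D2:**
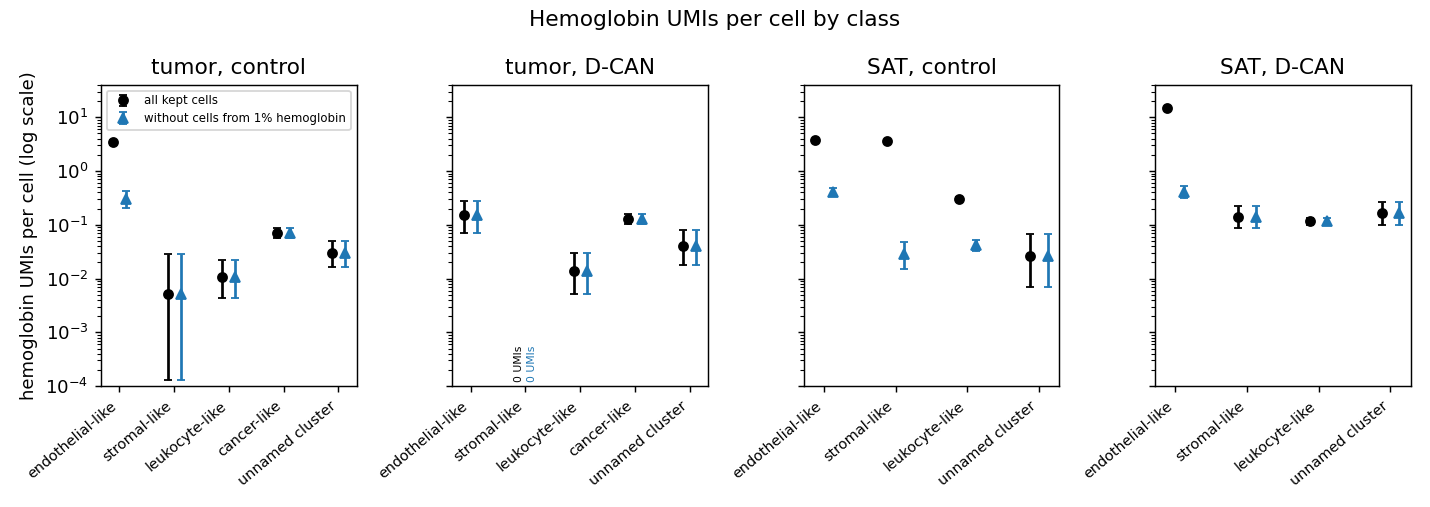
Hemoglobin UMIs per cell (log scale) by class in each library, for all kept cells (black) and without cells with at least 1% hemoglobin (blue), with exact 95% Poisson intervals. Endothelial-like cells had 3.41, 0.149, 3.77 and 15.1 UMIs per cell, stromal-like cells of SAT control were near them at 3.68, and stromal-like cells of tumor D-CAN had 0 UMIs.

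The other classes were then taken without the cells at 1% or more. Together, cancer-like cells included, they had 0.0444 and 0.0718 UMIs per cell in tumor control and tumor D-CAN. In SAT control and SAT D-CAN they had 0.0383 and 0.121, so the tissues did not separate. Leukocyte-like and stromal-like cells by themselves had more UMIs per cell in SAT than in the tumors. Leukocyte-like cells had 0.0109 UMIs per cell in tumor control (7 UMIs in 640 cells) and 0.0141 in tumor D-CAN (6 in 427). In SAT they had 0.0422 in control (70 in 1659) and 0.116 in D-CAN (172 in 1486). In CPM this was 6.26 (interval 2.52 to 12.9) and 5.34 (1.96 to 11.6) in the tumors and 16.4 (12.8 to 20.7) and 32.0 (27.4 to 37.2) in SAT, so the SAT intervals lay apart and those of the tumors overlapped. The same order held for the share of SAT leukocyte-like cells with a UMI, 4.04% and 10.4%, and after thinning to 1000 UMIs, 1.63% and 3.91%. Stromal-like cells had 1 UMI in 193 cells in tumor control and 0 in 117 cells in tumor D-CAN, which allows a share of up to 2.56%. In SAT they had 13 UMIs in 457 control cells and 19 in 133 D-CAN cells, or 0.0284 and 0.143 per cell. Cells of unnamed clusters had 0.0299, 0.0410, 0.0261 and 0.167 UMIs per cell. SAT D-CAN thus had the highest level in leukocyte-like and stromal-like cells and in unnamed clusters, at 0.116 to 0.167 UMIs per cell, and the intervals of these classes overlapped.

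For comparison, transcripts restricted to 1 class were counted in the cells of other named classes. In SAT D-CAN a hemoglobin UMI was found in 10.6% of 1619 cells that were neither endothelial-like nor unnamed, with no cell at 1% or more. Igkc, the immunoglobulin kappa constant gene with 36267 UMIs, was found in 7.59% of 303 cells outside the leukocyte-like class, and Dcn, with 8112 UMIs, in 2.05% of 1656 cells outside the stromal-like class. In SAT control the shares were 3.78% for hemoglobin, 26.4% for Igkc and 3.01% for Dcn. In the tumors, hemoglobin was found in 2.96% (control) and 3.18% (D-CAN) of cells outside the endothelial-like class and the unnamed clusters. The macrophage gene Lyz2 was found in 19.2% and 18.2% of cells outside the leukocyte-like class, and the endothelial gene Cdh5 in 0.509% and 0.571% outside its own. Median depths differ between these sets of cells, and shares were not thinned here.

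The share of alpha chains differed between droplets and cell classes. In the droplets above 50%, alpha made up 27.2% of hemoglobin UMIs in tumor control (interval 23.9 to 30.8), 27.5% in tumor D-CAN (25.2 to 29.9), 35.8% in SAT D-CAN (35.0 to 36.6) and 43.1% in SAT control (38.9 to 47.4). The 7 SAT control droplets from 10% to 50% had 38.5% (35.8 to 41.1). Endothelial-like cells with at least 1% hemoglobin had 57.3% alpha in tumor control (51.7 to 62.9), 47.6% in SAT control (45.3 to 49.8) and 36.7% in SAT D-CAN (34.8 to 38.6). In SAT D-CAN the interval of these cells overlapped that of the droplets, whereas in tumor control it lay above. The endothelial-like groups were 2 cells in tumor control, 23 in SAT control and 3 in SAT D-CAN, where 1 cell held 2172 of 2493 UMIs. The droplets above 50% numbered 1 in tumor control and 3 in SAT D-CAN. All these intervals treat UMIs as independent draws, so spread between cells is not measured. SAT leukocyte-like cells under 1% had 32.9% alpha (22.1 to 45.1) in control and 25% (18.7 to 32.2) in D-CAN, the latter below the droplets of the same library. Of the single cells with at least 1% hemoglobin, every one had both chains, while 1 of 67 control and 4 of 154 D-CAN leukocyte-like cells of SAT did. A cell with 1 UMI cannot show both chains. These leukocyte-like cells held only 70 UMIs in control and 172 in D-CAN, so nothing about chain make-up is read from this contrast.

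Cancer-like cells had almost only alpha. In the tumor control library their 95 hemoglobin UMIs were 6 of Hbb-bs, 0 of Hbb-bt, 88 of Hba-a1 and 1 of Hba-a2, so that 93.7% were alpha (interval 86.8 to 97.7). In the D-CAN library their 88 were 4, 0, 80 and 4, or 95.5% alpha (88.8 to 98.8). Neither interval reached that of the 1 droplet above 50% in the same library, though spread between droplets or cells is not in these intervals. In tumor leukocyte-like cells, 7 of 7 UMIs were alpha in control and 2 of 6 in D-CAN. Hba-a1 made up 95.2% to 98.9% of alpha in the droplets, in endothelial-like cells above 1% and in cancer-like cells. Hbb-bt made up 9.92% and 10.6% of beta in the tumor control and tumor D-CAN droplets, 13.4% in the SAT control droplet above 50% and 17.9% in the SAT D-CAN droplets, but 1.49% in the tumor control endothelial-like cells above 1% (2 of 134 UMIs, interval 0.181 to 5.29).

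**Figure D3:**
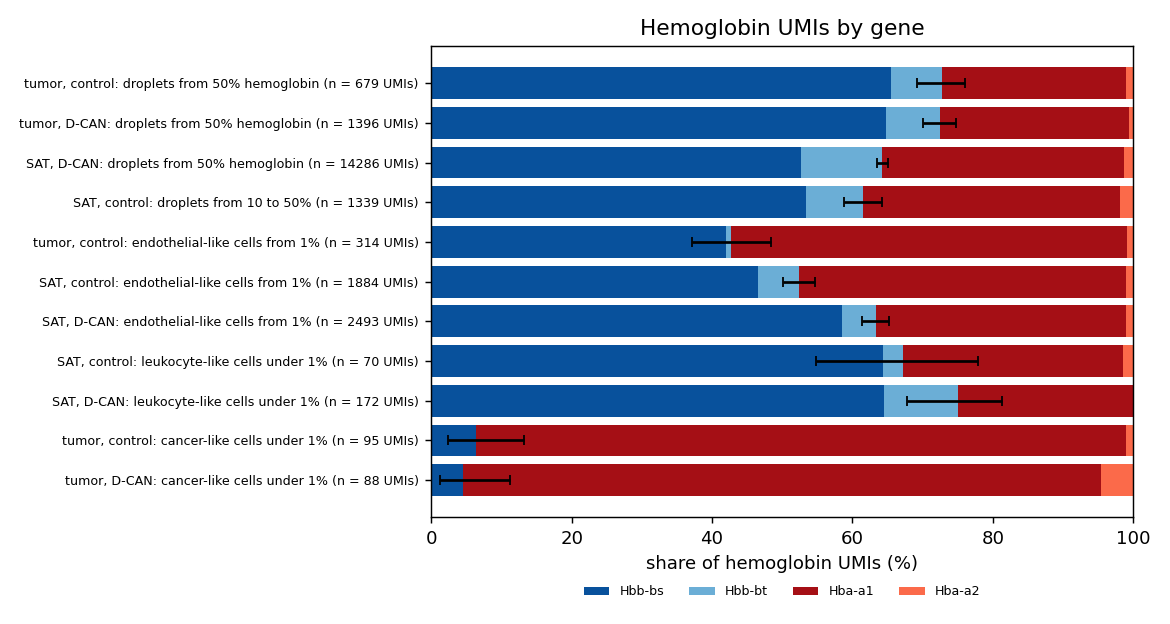
Share of hemoglobin UMIs (%) from each gene in groups of droplets or cells, with the number of UMIs in each bar's label. The bars mark exact 95% intervals of the border between beta (blue) and alpha (red). Cancer-like cells had 93.7% and 95.5% alpha, against 27.2% and 27.5% in the tumor droplets with at least 50% hemoglobin.

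Hba-a1 in cancer-like cells was not evenly spread either. It was found in 49 of 1326 control cells (3.70%) and in 28 of 681 D-CAN cells (4.11%), at most 7 UMIs per cell in each. Cells with 2 or more UMIs numbered 20 and 18 and held 59 of 88 and 70 of 80 UMIs. The cells with Hba-a1 had 0 beta UMIs in control and 1 in D-CAN, and none had a UMI of the erythroid list. Their median depth was 13000 and 20190 UMIs, against 10630 and 18160 in the cancer-like cells without it. In control, cancer-like clusters 4 and 6 held 38 Hba-a1 UMIs in 265 cells and 32 in 170 (0.143 and 0.188 per cell), while cluster 3 held 3 in 288. Cluster 4 was led by Msln, Krt6a and Cldn4, cluster 6 by Elovl4, Lrrc31 and Hoxb13, and cluster 3 by kallikrein genes such as Klk1b16. Cancer-like clusters 0 and 5, and the D-CAN cells by cluster, are not given here. No preference for a cluster is therefore read from these counts of 1 library.

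Alpha UMIs per cell were lowest in the shallowest cancer-like cells of both tumor libraries. In control cancer-like cells ordered by depth in 5 equal groups, alpha UMIs per cell were 0.0150, 0.0189, 0.0943, 0.0981 and 0.109 from the shallowest to the deepest. In D-CAN they were 0.0219, 0.132, 0.184, 0.176 and 0.103. The 10 richest cells held 44.3% of the Hba-a1 UMIs of cancer-like cells in control and 63.75% in D-CAN. No steady rise, and no fall in the deepest D-CAN group, is therefore read from these values. Beta stayed between 0.00376 and 0.00755 UMIs per cell in control and between 0 and 0.0147 in D-CAN. These were 6 and 4 UMIs in all, too few to show a trend or its absence. In SAT leukocyte-like cells UMIs per cell showed no steady trend with depth. Beta was 0.0301, 0.0271, 0.0211, 0.0181 and 0.0452 from shallow to deep in control and 0.0805, 0.0774, 0.104, 0.0505 and 0.121 in D-CAN. The CPM of the 4 genes in these cells accordingly went from 70.5 in the shallowest control group to 11.2 in the deepest, and from 88.7 to 20.7 in D-CAN.

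**Figure D4:**
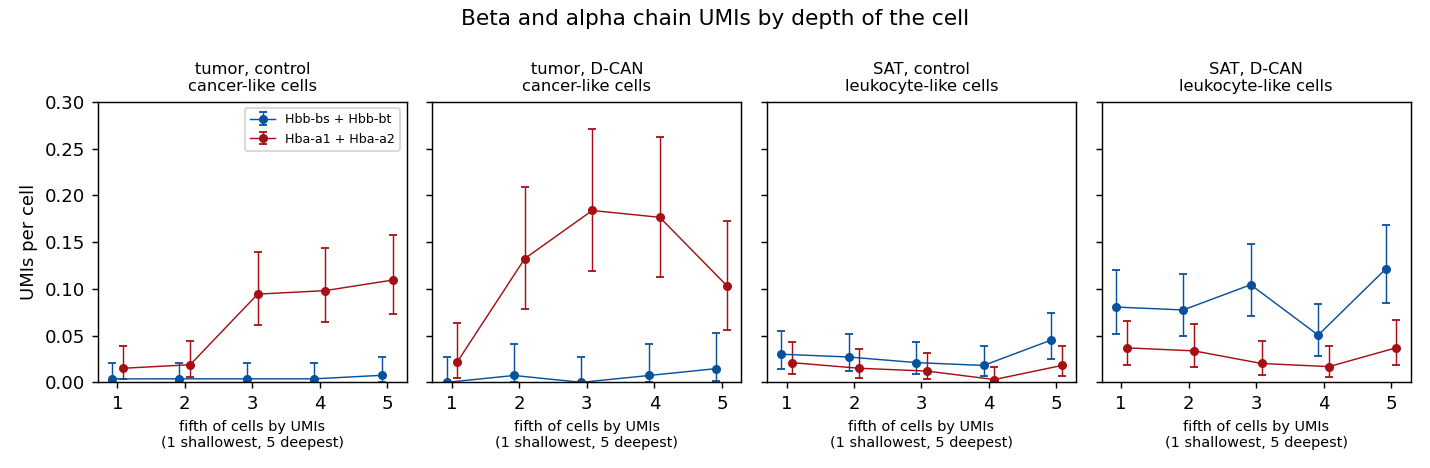
Beta (blue) and alpha (red) UMIs per cell, without cells with at least 1% hemoglobin, in 5 equal groups of cells by depth, with exact 95% Poisson intervals. The left panels show cancer-like cells of the tumors, in which alpha ranged from 0.0150 to 0.184, and the right panels show leukocyte-like cells of SAT, in which beta exceeded alpha in each group.

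Cells with over 20% mitochondrial UMIs, a sign of damage, had no more hemoglobin UMIs per cell than cells with at most 10% in any library. In SAT D-CAN, cells with at most 10%, 10 to 20% and over 20% mitochondrial UMIs had 0.152, 0.101 and 0.142 hemoglobin UMIs per cell, although the CPM were 34.1, 42 and 135.9. In SAT control the UMIs per cell were 0.122, 0.0520 and 0.0274, in tumor control 0.0547, 0.0995 and 0.0226, and in tumor D-CAN 0.0993, 0.0357 and 0.0204. Kept cells over 20% numbered 708 and 294 in the tumors and 147 and 218 in SAT (control and D-CAN). The rates in that group thus rest on few UMIs. All rates of this paragraph leave out cells with at least 1% hemoglobin. In SAT control 165 of the 310 UMIs so counted came from 1 endothelial-like cell. At the rates above, that cell can only lie in the group with at most 10% mitochondrial UMIs. No trend is therefore read from the SAT control groups.

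The comparison of D-CAN with control depended on a handful of droplets. Over kept cells the 4 genes together were lower in D-CAN in the tumor, with a log2 ratio of CPM of −1.84 (interval −2.16 to −1.54), and lower in SAT, with −0.80 (−0.86 to −0.73). Over all deposited cells, those under 200 genes included, they were higher in D-CAN in both, with 0.60 (0.49 to 0.71) in the tumor and 1.82 (1.77 to 1.87) in SAT. The droplets under 200 genes held 681, 1397, 0 and 14286 hemoglobin UMIs in tumor control, tumor D-CAN, SAT control and SAT D-CAN. Without cells with at least 1% hemoglobin the log2 ratios were −0.20 (−0.57 to 0.16) in the tumor and −0.32 (−0.56 to −0.08) in SAT. Without the endothelial-like class they were −0.0052 in the tumor and −3.62 in SAT. Of the 310 SAT control UMIs under 1%, 165 came from 1 endothelial-like cell, whose weight the counting interval does not cover. SAT cells under 1% outside that class had 0.0383 UMIs per cell in control and 0.121 in D-CAN, the opposite order. The number of red cells in a suspension and the RNA left in each cannot be told apart in such sums.

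By gene, the same cells were compared. Hbb-bs in kept cells had 155 UMIs (8.64 CPM) in tumor control and 12 (0.77 CPM) in tumor D-CAN, a log2 ratio of −3.44, and 2131 (319.9 CPM) and 1623 (218.9 CPM) in SAT, a log2 ratio of −0.55. Hba-a1 had 294 (16.4 CPM) and 91 (5.83 CPM) in the tumors, a log2 ratio of −1.49, and 1847 (277.3 CPM) and 971 (131.0 CPM) in SAT, a log2 ratio of −1.08. Both were thus lower in D-CAN in both tissues under this filter, though 104 of the 155 tumor control UMIs of Hbb-bs came from 1 cell. Hbb-bt had 3 UMIs in each tumor library, too few for a ratio, and 285 and 151 in SAT, a log2 ratio of −1.07. Hba-a2 had 10 and 6 UMIs in the tumors and 57 and 26 in SAT, with log2 ratios of −0.49 (interval −2.28 to 1.07) and −1.27 (−2.02 to −0.59). Without cells with at least 1% hemoglobin, Hbb-bs in SAT was 22.1 and 22.2 CPM and Hbb-bt had 12 and 31 UMIs, while Hba-a1 had 150 and 83 (22.7 and 11.2 CPM). Of the 150 SAT control UMIs of Hba-a1, 105 came from 1 endothelial-like cell. In the tumor, without cells with at least 1% hemoglobin, the log2 ratio of Hbb-bs was −0.712 (interval −1.88 to 0.327). That of Hba-a1 was −0.162 (−0.575 to 0.244), so neither interval lay apart from 0.

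**Figure D5:**
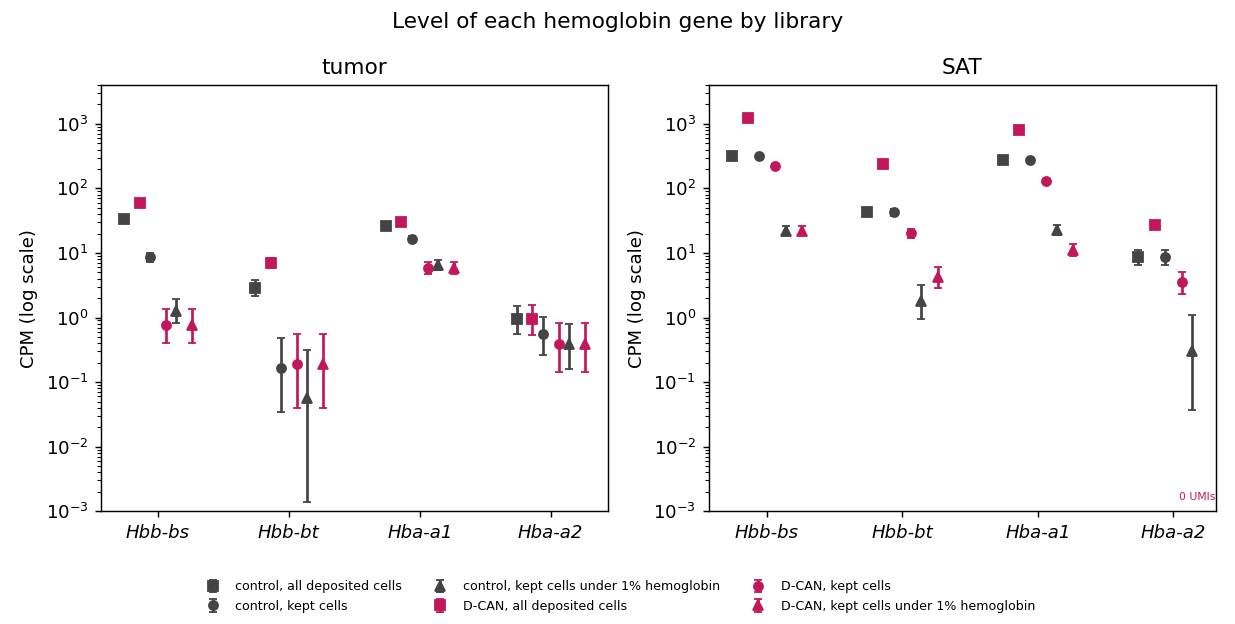
CPM (log scale) of each hemoglobin gene in the tumor (left) and SAT (right), for control (grey) and D-CAN (red), over all deposited cells (squares), kept cells (circles) and kept cells under 1% hemoglobin (triangles), with exact 95% Poisson intervals. Hbb-bs in SAT was 319.9 against 218.9 CPM in kept cells, higher in D-CAN over all deposited cells, and 22.1 against 22.2 CPM under 1%.

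The same ratios were computed for all genes. In the tumor 1.5% of the 13003 genes that reached 20 UMIs in the control and D-CAN libraries together were at least 2-fold higher in D-CAN and 0.677% at least 2-fold lower. In SAT 1.39% of 12725 genes were higher and 1.95% lower. Of the 4 hemoglobin genes, 2 passed the minimum in the tumor and both were among those lower, and 4 passed in SAT, of which 3 were lower. The genes were selected on these counts, so nothing is read from these numbers.

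Most genes of heme and hemoglobin handling lay within 2-fold. Of 10 measured heme synthesis genes none was 2-fold higher or lower in D-CAN in either tissue, and their median log2 ratios were 0.01 in the tumor and −0.01 in SAT, where those of all genes were 0.05 and −0.04. Of 11 measured tumor genes for hemoglobin and heme uptake, breakdown and iron handling, 1 was higher. It was Hp (haptoglobin, the plasma protein that binds free hemoglobin), at 18.2 and 42.7 CPM in control and D-CAN, a log2 ratio of 1.23. Of 13 measured in SAT, 2 were higher. They were Cd163, the macrophage receptor for the haptoglobin-hemoglobin complex (5 and 26 UMIs, log2 ratio 2.11), and Slc40a1, the iron exporter ferroportin (9 and 26 UMIs, log2 ratio 1.33). With a minimum of 50 UMIs neither was measured, and 0 of 11 were higher. The medians of this list were 0.13 and −0.01. Cygb (cytoglobin) was the only measured tissue globin, at log2 ratios of 0.32 and −0.06, and no globin other than the 4 genes and no erythroid gene passed the minimum.

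Some markers of other blood cells differed between the libraries too. Of 9 measured neutrophil genes 6 were at least 2-fold lower in D-CAN in the tumor, against 0.677% of all genes, with a median log2 ratio of −1.27. In SAT 5 of 8 were higher, against 1.39% of all genes, with a median of 1.09. The alarmin S100a8 went from 79.2 to 29.1 CPM in the tumor and from 273.5 to 608.4 CPM in SAT. In the tumors it was found in 2.66% of 640 control and 2.11% of 427 D-CAN leukocyte-like cells. The neutrophil cluster of SAT had 16 control and 18 D-CAN cells. Such values rest on few cells, so no difference in neutrophils is read from them. Of the platelet genes 3 were measured in the tumor, of which Pf4 (platelet factor 4) was higher (43.6 and 101.2 CPM), and 2 in SAT, of which none was past 2-fold. In the tumor Ppbp had 37 and 36 UMIs and Itga2b 12 and 15 in control and D-CAN, both within 2-fold. The rest of the platelet list was under the minimum there, so no difference in platelets is read from Pf4. Of the class-restricted genes counted above, 1 of 11 was higher and 2 were lower in the tumor, and 2 of 12 were higher and 1 lower in SAT. S100a8 and S100a9 stand in both this list and that of neutrophil genes. Their part in the hemoglobin levels was not tested.

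Across 18 units, each a class in 1 library with at least 50 cells, the genes whose log2(CPM + 1) was most like that of the summed hemoglobin genes were Gle1 (Pearson r 0.877), Dll1 (0.870), Rasgrf2 (0.859), She (0.854) and Rnf216 (0.846), then St6galnac3, Numa1, Fryl and Cwc22 (0.836 to 0.830), of 10577 genes ranked. Units of 1 library share its depth and its red cells. Dll1, a Notch ligand, She, Rasgrf2 and St6galnac3 were higher in endothelial-like units (mean log2 5.11 to 6.79) than in others (1.10 to 1.72). Others differed less, with Gle1 at 5.61 and 4.58, Rnf216 at 5.67 and 4.90, Numa1 at 6.24 and 5.68. Cwc22 was at 4.52 and 3.80 and Fryl at 6.93 and 5.15. The hemoglobin levels used include the cells with at least 1% hemoglobin. In SAT control they were 1830 CPM in endothelial-like and 1796 CPM in stromal-like cells, so that these classes were nearly level.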

How the data were processed

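Single-cell RNA-seq from 4 libraries was used, 1 per tissue and treatment, so no test between groups was possible. The authors captured cells with the 10x Chromium 3′ assay after dead cell and red blood cell removal, and deposited a UMI count for each gene in each cell, made with Cell Ranger (3.1.0 per the submitters' processing notes, which also name STAR 2.6 and mm10; the SAT D-CAN header names 3.0.2), with Ensembl 93 genes and no normalization. No deposited cell has under 500 UMIs, so empty droplets were not analysed here.

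The 4 genes, the gene lists and the rules were chosen with earlier results of these data known. Cells under 200 genes were left out except where stated. Libraries of a tissue were merged and clustered in Seurat 5.3.0 (R 4.3.3), with 10 principal components of the 2000 most variable genes and resolution 0.8, without 10 globin genes and the 10 genes the study reports. A cluster was named from at least 3 detected markers of a class (at least 10% of cells and 10% of the highest cluster's CPM), provided that its 10 leading genes did not hold more markers of some other class. It also stayed unnamed if its depth was under 0.333 of the library median and no marker of its own class was among its leading genes. These thresholds were chosen with the clusters in view, and 2 clusters of each tissue stayed unnamed. No doublet caller was run, and leaving out the 2% of cells with the most UMIs was tried instead. CPM were computed from summed UMIs, with 0.5 UMI added to both libraries for the ratios across all genes. Counting intervals are exact Poisson or Clopper-Pearson at 95% (scipy 1.17.1), and a count of 0 allows 3 counts of the total. Thinned shares come from 1 random draw and leave out cells with fewer UMIs than the target. Counting and thinning were checked on simulated data. The first criterion of that check failed for genes with few counts and was replaced by the coverage of the interval. Genes named are the 4, the listed genes with at least 20 UMIs and the 10 most like the 4 in level (at least 200 UMIs in the series). Positions and sequences are from GENCODE vM21 on GRCm38, whose gene identifiers match those in the files. Ahsp was not matched by symbol and is not analysed here, and a few genes of the lists and rules are not reported here.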

Additional observations from a re-analysis of the deposited data

Results flagged for a closer look

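Droplets under 200 genes, which the comparisons over kept cells leave out, held hemoglobin UMIs above the level of the control library of the same tissue. In tumor D-CAN there were 1397 UMIs in 2 of these droplets, against 681 in 3 in tumor control. In SAT D-CAN there were 14286 UMIs in 3 droplets, against 0 in SAT control, where 10 droplets had under 200 genes. The values are those of 1 library per group.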

How the results depend on the processing

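The log2 ratio of hemoglobin between D-CAN and control changed sign with the cells counted. In the tumor, where it was −1.84, it was 0.60 over all deposited cells, −1.15 per cell, −1.06 without the richest cell, −0.20 without cells at 1% hemoglobin (−0.21 when those under 200 genes are included) and −0.0052 without the endothelial-like class. In SAT, where it was −0.80, it was 1.82 over all deposited cells, 0.11 with 500 genes or more, 0.025 without cells at 10%, −0.32 without cells at 1%, with or without those under 200 genes, −0.058 per cell, −2.93 without the 2% deepest cells, −2.81 without the richest cell and −3.62 without the endothelial-like class. Over all deposited cells the single genes turned as well, with Hbb-bs at 0.81 and Hba-a1 at 0.18 in the tumor and Hbb-bs at 1.94, Hbb-bt at 2.49, Hba-a1 at 1.52 and Hba-a2 at 1.67 in SAT. In SAT, Hbb-bs was also 0.44 with 500 genes or more, 0.34 without cells at 10%, 0.0067 without cells at 1% (0.0050 with those under 200 genes) and 0.19 per cell. Hbb-bt was 0.069 with 500 genes or more, 0.016 without cells at 10% and 1.17 without cells at 1%, with or without those under 200 genes, and Hba-a2 was 0.13 with 500 genes or more. Each of these settings removes or adds cells, except the value per cell. Settings without the endothelial-like class, without the richest cell, and over all deposited cells without those at 1% were added once the data were known.

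The share of cells with at least 2 UMIs was 0.942%, 1.48%, 1.62% and 1.85% in tumor control, tumor D-CAN, SAT control and SAT D-CAN. Thinning left out the cells shallower than its target, so the sets of cells differ between targets. At 2000 UMIs 904, 327, 1666 and 411 cells were left out, in the same order. Thinned to 500, 1000 and 2000 UMIs, the share of cells with any hemoglobin UMI was 0.543%, 0.872% and 1.29%, then 0.336%, 0.964% and 1.47%, then 2.68%, 2.85% and 2.64%, and 3.06%, 4.64% and 6.39%. Without the endothelial-like class and without thinning, that share was 4.25% in SAT control, against 5.17%. Droplets at 1% hemoglobin numbered 3, 36 and 6 where those at 10% numbered 1, 8 and 3, and SAT control had 1 at 50%. The endothelial-like level over that of others was 6.83, 10.9 and 3.41 times in tumor control, SAT control and SAT D-CAN without cells at 1%, and 29.1, 0.211 and 19.1 times in tumor control, tumor D-CAN and SAT D-CAN without the richest cell. With 20 principal components it was 0.357 times in SAT control, where 20 of the 23 rich cells left the class. Genes 2-fold higher and lower in the tumor numbered 64 and 36 with at least 50 UMIs, 30 and 20 with 100, and 649 and 326 at 1.5-fold, and in SAT 60 and 107, 36 and 52, and 509 and 867. No paired analysis was possible because each group has 1 library. Of the alternatives to the main values, 49 moved the value, 6 reversed it and 43 did neither. Among these, shares of cells and counts of cells or genes could be moved but not reversed. Of the alternatives to ratios of single genes and list medians, 27 moved the value, 16 reversed it and 48 did neither.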

Other observations

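The 23 endothelial-like cells of SAT control with at least 1% hemoglobin differed from the other 536 in the genes they held, described here after their values were seen and without a test. Of 9 endothelial markers, Flt1 was found in 19 of the 23 (82.6%, against 55.0% of the others). Pecam1 and Kdr were found in 18 (78.3%, against 53.4% and 48.7%) and Egfl7 in 17 (73.9%, against 62.1%). Esam was found in 14 (60.9%, against 48.1%) and Emcn in 10 (43.5%, against 36.4%). Cdh5 was found in 13 (56.5%, against 56.0% of the others), Tie1 in 3 (13.0%, against 20.7%) and Cldn5, a tight junction gene, in 2 (8.70%, against 51.3%). Itm2a was found in 13 of the 23 and in 17 of the 536, and Fst (follistatin) in 9 and 16. Slc45a4, Ctgf, Stc1, H2-M9, Steap4, Col13a1, Ivns1abp and Tnfaip2 were the other genes with the largest folds, from 17.4 to 39.9. Most of the 23 lay in a cluster led by venous genes such as Selp, Vwf and Ackr1. With 20 principal components, 20 of them joined a perivascular cluster.

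Of 14 SAT D-CAN cells with a UMI of any erythroid marker, 7 had hemoglobin, and these 14 held 97.9% of the library's hemoglobin UMIs. In SAT control the 14 such cells held 15%. In the tumors 13 control and 11 D-CAN cells held 59.4% and 92.5%, and in each library only 1 of them had hemoglobin. The planned rule asked for 2 or more erythroid markers. It found no cell in tumor control, tumor D-CAN or SAT control. In SAT D-CAN it found 1 cell, with 8.02% of the library's hemoglobin UMIs.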
